A study of Rattus norvegicus with 12 samples.

Results

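The 10 genes described here encode regulators of oxidative metabolism: the coactivators Ppargc1a and Ppargc1b (PGC-1 alpha and beta), the fatty acid-sensing receptors Ppara and Ppard, the estrogen-related receptors (ERRs) Esrra, Esrrb and Esrrg, the respiratory factor Nrf1, and the retinoid X receptors Rxra and Rxrg. They were chosen by name from a table of 30560 rat genes, and each name matched 1 gene. All 10 were among the 18182 genes with at least 10 read counts in total over the rats, which were the genes tested. RNA was taken from formalin-fixed, paraffin-embedded sections of the left ventricle of 12 male Wistar rats and sequenced as strand-specific, rRNA-depleted libraries. All rats had a thoracotomy at 7 weeks of age, received a daily oral gavage for 8 weeks and were fasted overnight before the hearts were taken. The 4 Sham rats had no ligature and received vehicle (carboxymethylcellulose). The 4 MI rats had a permanent ligation of the left anterior descending coronary artery, which causes a myocardial infarction, and the same vehicle. The 4 MI + UA rats had the ligation and received urolithin A, a gut microbial metabolite of ellagitannins, given in the labels as 50 mg/ml. Rat 66 carries an MI + UA label but appears among the vehicle-treated infarcted rats elsewhere in the study's records, so the regulators' fold changes and calls and the counts of called target genes were also computed with it counted in MI and without it.

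The PGC-1 coactivators do not bind DNA themselves. They are recruited by PPARs, ERRs and NRF-1 and raise transcription of genes for fatty acid uptake, beta-oxidation, the citric acid cycle and respiration, which supply most of the energy of the adult heart. PPARs bind DNA as pairs with retinoid X receptors, ERRs act without a known natural ligand, and NRF-1 acts on nuclear genes for respiratory subunits and mitochondrial import. Lower PGC-1 and PPAR alpha transcripts are a known feature of failing rodent hearts.

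Libraries held from 6228706 to 19031695 reads on genes, and from 50.2% to 58.6% of those reads came from the mitochondrial genome. The share of all reads that fell on genes was 46.9% to 48.3% in Sham, 43.3% to 44.8% in MI and 42.9% to 47.2% in MI + UA, so it did not overlap between Sham and MI, and its part in the differences between those groups was not tested. Levels are given as CPM, read counts scaled to library size, after TMM scaling, which adjusts for library depth and composition. CPM does not account for transcript length, so levels of different genes are not ranked against each other. Fold changes are on the log2 scale with a standard error (SE), and a gene was called when its edgeR quasi-likelihood p, adjusted by Benjamini-Hochberg over all 18182 genes, was under 0.05. The tissue label held: the 9 matched cardiomyocyte markers were detected in every group. Adipocyte markers were at or near 0, with a summed level of 0 to 0.251 CPM in Sham, 0 to 3.29 CPM in MI and 0 to 0.800 CPM in MI + UA. Of these 5 markers, Adipoq, Ucp1 and Cidec had no read in Sham and Cidec none in MI + UA.

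In MI hearts, 4 of the 10 regulators fell and none rose. They were Ppargc1a, Ppargc1b, Esrrb and Rxrg, 1 or more from each family other than the PPARs and NRF-1. Of all genes tested, 5.53% were called lower and 5.82% higher in this comparison. The median log2 fold change of the 10 was -0.30, beside 0.03 over all genes. None of the 4 was called lower when libraries were scaled to cardiomyocyte markers, as described after the single genes. Markers of heart cell types moved in the same comparison. Of the 9 cardiomyocyte markers 8 were called lower, and their summed level was 51996 to 59369 CPM in Sham and 37024 to 43476 CPM in MI. In contrast, 6 of 8 fibroblast markers were called higher (summed level 1127 to 1439 CPM in Sham and 2188 to 3574 CPM in MI), as were 7 of 8 macrophage markers (121 to 152 CPM and 246 to 397 CPM). Of 7 endothelial markers 1 was called lower, and of 5 smooth muscle and pericyte markers 3 were called higher. In tissue RNA of this kind, fewer cardiomyocytes and less of a transcript per cardiomyocyte cannot be told apart.

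**Figure D1:**
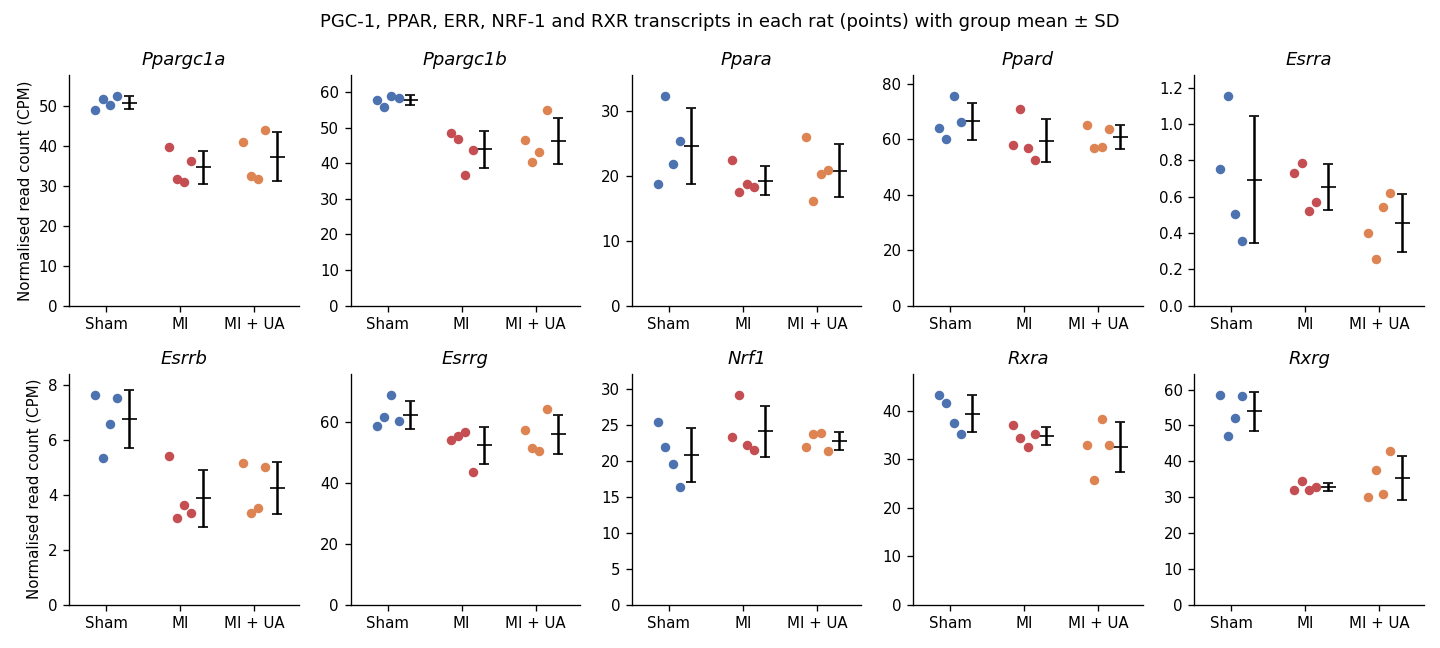
Normalised read counts (CPM, linear axes from 0) of each regulator in the 12 rats, 1 point per rat, with the group mean ± SD beside the points. All MI rats lie below all Sham rats for Ppargc1a, Ppargc1b, Esrrg and Rxrg, and the MI + UA rats overlap the MI rats for all 10 genes.

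Ppargc1a, the inducible coactivator that links energy demand to mitochondrial gene transcription, read 48.8, 51.7, 50.2 and 52.5 CPM in the Sham rats. In the MI rats it read 39.7, 31.7, 30.8 and 36.3 CPM, so the groups did not overlap. It fell by 0.55 on the log2 scale (SE 0.11, 95% interval -0.78 to -0.32, adjusted p = 0.00241), a change of -31.5%, and was lower in 16 of 16 rat pairs. The window just before its annotated start is shown because Ppargc1a transcription is known to respond to cAMP signalling, and the window holds a full cAMP response element (capitals, 181 to 174 bases before the start). The sequence is RefSeq's, build GRCr8, chr14:63634058-63634307, plus strand.
Ppargc1a: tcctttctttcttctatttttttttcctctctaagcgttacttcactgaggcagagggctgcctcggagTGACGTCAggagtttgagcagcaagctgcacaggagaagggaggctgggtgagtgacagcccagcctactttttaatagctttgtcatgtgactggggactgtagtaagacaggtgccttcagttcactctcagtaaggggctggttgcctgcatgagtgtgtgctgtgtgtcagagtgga

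Ppargc1b, the closest relative of Ppargc1a, was as uniform in Sham hearts, at 57.7, 55.9, 58.9 and 58.4 CPM. The MI rats gave 48.5, 46.7, 36.6 and 43.8 CPM, again with no overlap. It fell by 0.39 (SE 0.10, 95% interval -0.61 to -0.18, adjusted p = 0.0159). Without MI rat 61, its lowest library, the log2 fold change was -0.32 and the adjusted p was 0.0677, so the call rested on that rat. The gene also hosts Mir378 and Mir3557, which these libraries do not measure as mature miRNAs.

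Rxrg, the retinoid X receptor subtype with the most restricted, muscle-rich expression, had the smallest adjusted p of the 10. Sham rats read 58.6, 47.1, 52.2 and 58.1 CPM. The 4 MI rats lay close together at 31.9, 34.5, 31.97 and 32.75 CPM, all below the lowest Sham rat. It fell by 0.72 (SE 0.11, 95% interval -0.96 to -0.49, adjusted p = 0.000207), a change of -39.5%, and the call held when any 1 rat was left out. Rxra, the broadly expressed subtype, read 35.2 to 43.4 CPM in Sham and 32.6 to 37.2 CPM in MI, and its log2 fold change of -0.18 (SE 0.11, adjusted p = 0.356) was not called.

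Within the ERRs the evidence was uneven. Esrrb was the least certain of the 4 calls, at 7.65, 5.34, 6.57 and 7.51 CPM in Sham and 5.41, 3.14, 3.63 and 3.34 CPM in MI. Sham rat 17 and MI rat 36 met in the middle, so 15 of 16 pairs were lower. The fall was 0.78 (SE 0.22, 95% interval -1.23 to -0.33, adjusted p = 0.0226) and rested on 200 reads in Sham and 170 in MI. It lost the call when Sham rat 12 or 38 or MI rat 57, 61 or 89 was left out, with log2 fold changes of -0.74 to -0.70 and adjusted p of 0.0520 to 0.0754. Esrrg, the ERR that drives the perinatal switch to oxidative metabolism in the heart, did not overlap between groups, unlike Esrrb. Its Sham values were 58.6, 61.6, 69.0 and 60.3 CPM and its MI values 54.2, 55.5, 56.6 and 43.4 CPM. The difference was small (log2 fold change -0.25, SE 0.10, unadjusted p = 0.0218) and not called after adjustment (adjusted p = 0.125). Groups without overlap in the lower direction were seen for 4 of the 10 regulators and for 7.56% of all genes.

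Esrra, the ERR most often studied in heart, could not be assessed. It had 2 to 11 reads per library, with 20 in all Sham rats and 27 in all MI rats (exact 95% Poisson intervals 12.2 to 30.9 and 17.8 to 39.3 reads, counting error only). The log2 fold change was -0.09 with a 95% interval of -1.12 to 0.94, which covers a halving and nearly a doubling. In RefSeq the gene overlaps Trmt112, and whether reads shared by both were discarded in counting was not tested.

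The PPARs themselves were not called. Ppara, the main fatty acid-sensing receptor of the heart, varied widely among Sham rats, at 18.8, 32.3, 21.9 and 25.4 CPM. MI rats gave 22.5, 17.6, 18.7 and 18.3 CPM, inside or just under that range. The log2 fold change was -0.34 (SE 0.16, unadjusted p = 0.0390, adjusted p = 0.179), and without Sham rat 17, the highest library, it was -0.19 (unadjusted p = 0.234). Ppard, which is expressed in most tissues, read 60.0 to 75.8 CPM in Sham and 52.6 to 70.9 CPM in MI (log2 fold change -0.16, SE 0.10, adjusted p = 0.351). Nrf1 was the only regulator with a positive estimate, at 16.3 to 25.3 CPM in Sham and 21.5 to 29.2 CPM in MI (log2 fold change 0.20, SE 0.13, adjusted p = 0.375). Both pairs of ranges overlapped. With 1 rat left out, the estimates ran from 0.094 to 0.31 for Nrf1 and from -0.25 to -0.096 for Ppard, and neither was called.

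**Figure D2:**
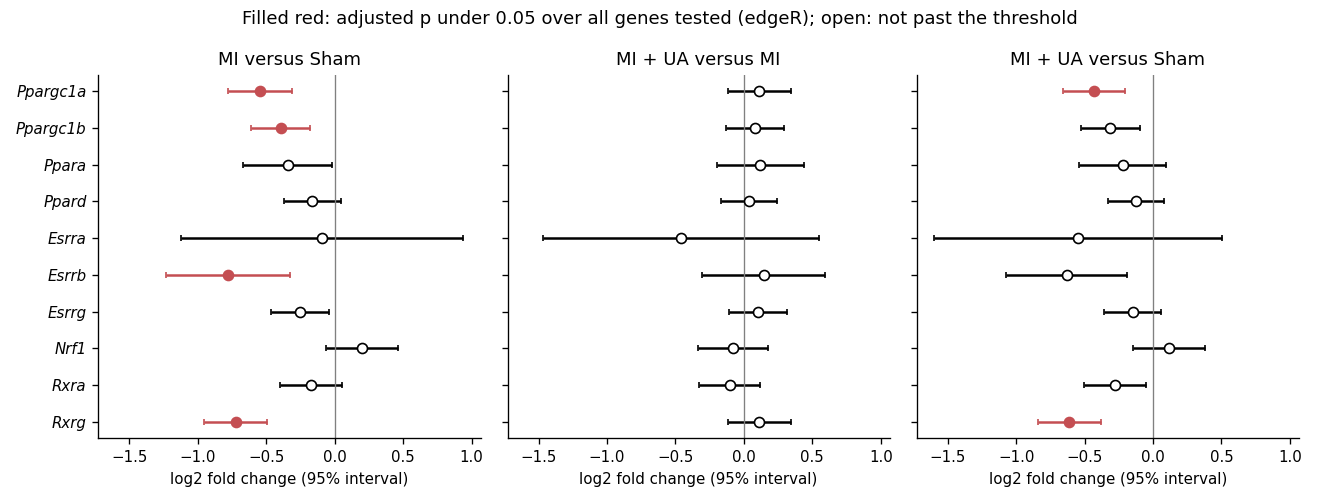
Log2 fold changes (points) with 95% intervals (bars) of the 10 regulators in the 3 comparisons, filled red where the adjusted p was under 0.05. In MI versus Sham 4 genes are filled, in MI + UA versus MI none, and in MI + UA versus Sham Ppargc1a and Rxrg.

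The falls were then set against the cardiomyocyte markers, an alternative chosen after the data were seen. Scaling the libraries to the 9 cardiomyocyte markers in place of TMM raised the median log2 fold change of all genes by 0.45. On that scale Ppargc1a stood at -0.09 (adjusted p = 0.543), Ppargc1b at 0.05 (adjusted p = 0.707), Esrrb at -0.32 (adjusted p = 0.254) and Rxrg at -0.27 (adjusted p = 0.0740), so none of the 4 was called lower. Nrf1 at 0.63 (adjusted p = 0.00313) and Ppard at 0.28 (adjusted p = 0.0298) were called higher, where 39% of all genes were called higher and 0.275% lower. Thus the 4 transcripts fell relative to the whole library and were not called lower relative to the cardiomyocyte markers. With TMM, 8 of the 9 markers were themselves called lower in MI, so this scale is not a fixed reference. The markers include Ttn, whose level closely followed that of Ppargc1b over the rats, as given below.

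**Figure D3:**
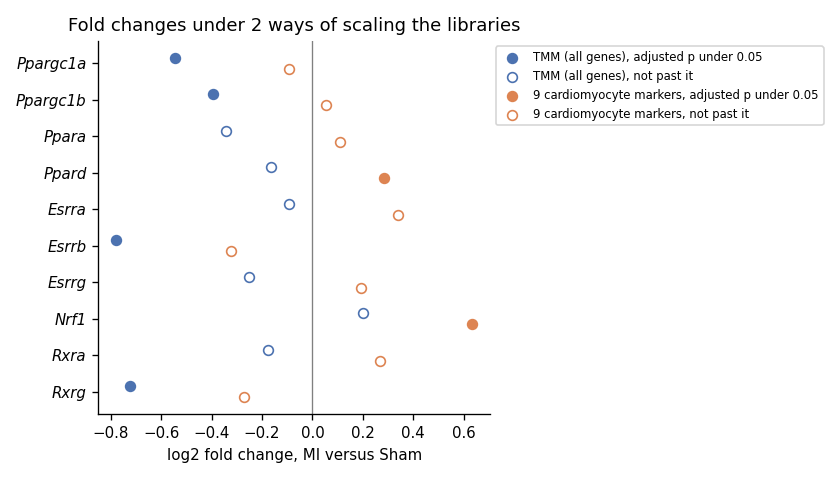
Log2 fold changes of the 10 regulators in MI versus Sham with libraries scaled by TMM (blue) or to 9 cardiomyocyte markers (orange), filled where the adjusted p was under 0.05. Every orange point lies to the right of its blue point, and the filled points change from 4 negative to 2 positive.

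Ratios of counts within a rat do not depend on how libraries are scaled, and 4 within-family ratios, chosen after the data were seen, were compared by exact two-sided permutation tests. The Ppargc1a/Ppargc1b ratio was 0.846, 0.925, 0.851 and 0.898 in Sham and 0.818, 0.678, 0.841 and 0.827 in MI, lower in 16 of 16 pairs. The Rxrg/Rxra ratio was 1.35, 1.13, 1.39 and 1.65 in Sham and 0.857, 1.00, 0.981 and 0.928 in MI, also lower in 16 of 16 pairs. Both gave exact p = 0.0286, the smallest that 4 against 4 rats allow, and an adjusted p of 0.171 over the 12 tests of the family. The Esrrb/Esrrg ratio averaged 0.109 ± 0.0216 (SD, n = 4) in Sham and 0.0744 ± 0.0190 in MI (exact p = 0.0857, adjusted p = 0.206). The Ppara/Ppard ratio did not separate the groups (0.376 ± 0.117 and 0.328 ± 0.0590, exact p = 0.600). No ratio passed the threshold after adjustment, which with 4 rats a group could be passed only if many of the 12 tests gave the smallest p, so this says little about the ratios.

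**Figure D4:**
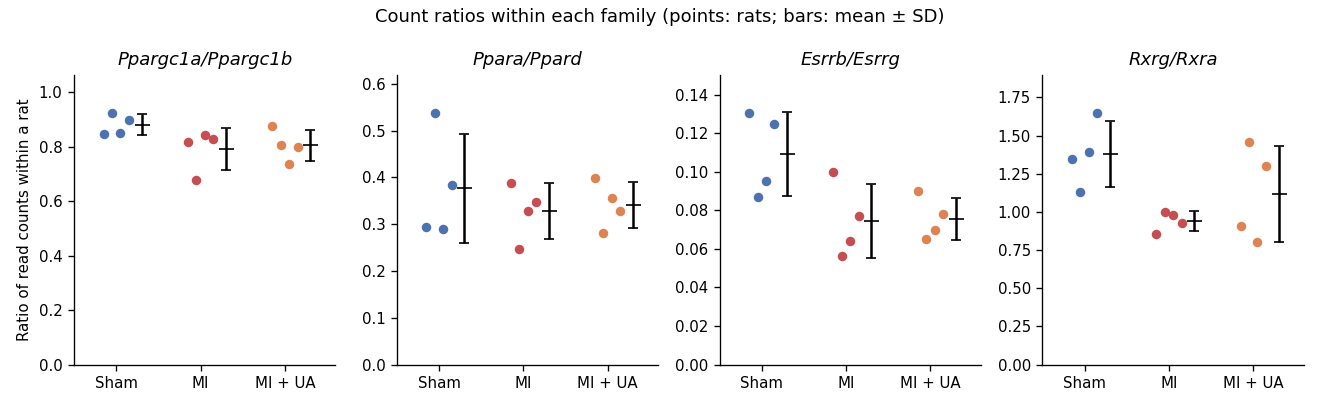
Ratios of read counts of 2 genes of a family within each rat (points) with the group mean ± SD, on linear axes from 0. The Sham and MI rats do not overlap for Ppargc1a/Ppargc1b and Rxrg/Rxra, while the MI + UA rats spread over both groups for Rxrg/Rxra.

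Urolithin A was compared with vehicle in infarcted rats. None of the 10 regulators differed between MI + UA and MI by edgeR (all adjusted p = 0.9997) or by DESeq2, and none had an unadjusted p under 0.05. Of all genes tested, 0% were called by edgeR and 3.79% had an unadjusted p under 0.05. No regulator had groups without overlap, against 2.34% of all genes in either direction. Ppargc1a read 40.9, 32.5, 31.7 and 44.0 CPM in the MI + UA rats, 2 of them above every MI rat. Its log2 fold change was 0.11, with a 95% interval of -0.12 to 0.34, and it ranged from 0.02 without rat 66 to 0.19 without MI rat 36. Rxrg read 30.0, 37.5, 30.7 and 42.9 CPM, a wider spread than in MI on both sides, with a log2 fold change of 0.11 (95% interval -0.12 to 0.34). Ppargc1b read 46.6, 40.3, 43.0 and 55.0 CPM (log2 fold change 0.08, 95% interval -0.13 to 0.30). Esrrb read 5.14, 3.34, 3.52 and 5.01 CPM (log2 fold change 0.15, 95% interval -0.30 to 0.60). In size, these intervals reach into the 95% intervals of the fall from Sham to MI for Ppargc1a, Ppargc1b and Esrrb and end short of it for Rxrg, and the comparisons share the MI rats.

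Estimates for the other 6 regulators were also small, apart from Esrra. They were 0.12 for Ppara (95% interval -0.20 to 0.44), 0.04 for Ppard (-0.17 to 0.24), 0.10 for Esrrg (-0.11 to 0.31), -0.08 for Nrf1 (-0.34 to 0.18) and -0.10 for Rxra (-0.33 to 0.12). For Esrra, with 24 reads in the MI + UA rats, the interval of -1.47 to 0.55 was too wide to be informative. Rat 66 had the highest MI + UA value for Ppargc1a, Ppargc1b, Esrrg and Rxrg, and also the highest summed level of cardiomyocyte markers in that group, 50039 CPM beside 38513 to 42947 CPM in the other three rats. Counted in MI, it turned the estimates of Ppargc1a (-0.06), Ppargc1b (-0.09), Ppard (-0.01), Esrrb (-0.02), Esrrg (-0.04) and Rxrg (-0.10) below 0, and no regulator was called. No marker of any cell type list was called between MI + UA and MI.

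Against Sham, the MI + UA hearts had lower Ppargc1a and Rxrg, and no regulator was called higher. Cell type markers moved here too, with 8 of 9 cardiomyocyte markers called lower (summed level 38513 to 50039 CPM in MI + UA), 6 of 8 fibroblast markers higher (2205 to 3685 CPM) and 7 of 8 macrophage markers higher (206 to 424 CPM). In this comparison 4.27% of all genes were called lower and 5.16% higher. Ppargc1a fell by 0.43 (SE 0.11, adjusted p = 0.0147) and Rxrg by 0.61 (SE 0.11, adjusted p = 0.00121). Without MI + UA rat 58 or 64 the adjusted p of Ppargc1a was 0.0512 or 0.0545. Ppargc1b (log2 fold change -0.31, adjusted p = 0.0628) and Esrrb (-0.63, adjusted p = 0.0670) stayed just short of the threshold. Ppargc1b was called in 6 of 17 alternatives, among them DESeq2 (adjusted p = 0.0387) and the fit without rat 66 (adjusted p = 0.0109), and Esrrb in 0 of 17. Ppargc1a, Ppargc1b, Esrrb and Rxrg did not overlap between Sham and MI + UA rats, as did 6.46% of all genes in the lower direction. Scaled to the cardiomyocyte markers, Ppargc1a (-0.05, adjusted p = 0.779) and Rxrg (-0.22, adjusted p = 0.168) were not called, whereas Nrf1 (0.51, adjusted p = 0.0162) and Ppard (0.27, adjusted p = 0.0428) were called higher, beside 31.9% of all genes called higher and 0.231% lower.

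With TMM scaling, many targets of these regulators also fell in MI hearts. Of 28 matched PPAR targets in lipid metabolism, 24 were called lower in MI than in Sham and none higher, with a median log2 fold change of -0.59. All 15 matched ERR targets in oxidative metabolism were called lower, with a median of -0.50, and 5 of 10 NRF-1 targets were called lower, with a median of -0.38. These shares stand beside the 5.53% of all genes called lower. In MI + UA versus Sham the numbers called lower were 24 of 28, 15 of 15 and 4 of 10, beside 4.27% of all genes. The NRF-1 count was 2 without Sham rat 32 or 38 or MI + UA rat 29 or 64. With each rat left out in turn, the ERR count there was 11 to 15 and the PPAR count 22 to 24. In MI versus Sham the PPAR count was then 19 to 24, the ERR count 15 and the NRF-1 count 4 to 5. Because the lists were drawn up with earlier results of these data known, their counts are a description.

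Among PPAR targets, the largest falls were those of Ehhadh, an enzyme of peroxisomal beta-oxidation (log2 fold change -0.94, SE 0.25, adjusted p = 0.0192), Slc27a1, a fatty acid transporter (-0.85, SE 0.10, adjusted p = 1.21e-05), and Decr1, which handles unsaturated fatty acids in mitochondria (-0.84, SE 0.15, adjusted p = 0.000844). Slc27a1 went from 92.0 ± 4.90 CPM in Sham to 50.9 ± 7.57 CPM in MI (SD, n = 4) with no overlap, whereas Ehhadh ranged more widely and was lower in 14 of 16 pairs. Acot1 (0.09, SE 0.94), Angptl4 (-0.35, SE 0.37) and Plin2 (-0.39, SE 0.14, adjusted p = 0.0737) were among the PPAR targets not called. The errors of Acot1 and Angptl4 were too large for their estimates to be informative. In the ERR list Ckmt2, the mitochondrial creatine kinase of striated muscle, fell from 553 ± 29.2 to 357 ± 23.1 CPM (-0.63, SE 0.09, adjusted p = 6.83e-05). Ogdh, a citric acid cycle enzyme, also fell (-0.54, adjusted p = 0.000159). Of the NRF-1 list, Cox5b (-0.53, adjusted p = 0.000239) and Cox4i1 (-0.52, adjusted p = 0.000533), subunits of cytochrome c oxidase, and Cycs, cytochrome c (-0.50, adjusted p = 0.00294), fell most. Cycs is also in the ERR list. The other two NRF-1 targets called were Cox6c and Tfb2m.

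The target lists too depended on the scaling. On the cardiomyocyte marker scale, 6 of 28 PPAR targets, 0 of 15 ERR targets and 0 of 10 NRF-1 targets were called lower in MI by edgeR, and the medians were -0.14, -0.05 and 0.08. Of the NRF-1 targets, Alas1 (0.39, adjusted p = 0.00506) and Tomm20 (0.53, adjusted p = 0.00193) were called higher. Of all genes, 0.275% were called lower and 39% higher on that scale. The 6 were Slc27a1 (-0.40), Hadhb (-0.32), Cpt2 (-0.31), Hadha (-0.27), Fabp3 (-0.26) and Acsl1 (-0.24), which serve fatty acid uptake, activation, transport into mitochondria and beta-oxidation. In MI + UA versus Sham there were again 6 PPAR targets, namely Ucp3 (-0.58), Decr1 (-0.57), Slc27a1 (-0.39), Fabp3 (-0.27), Cpt2 (-0.26) and Hadhb (-0.25).

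**Figure D5:**
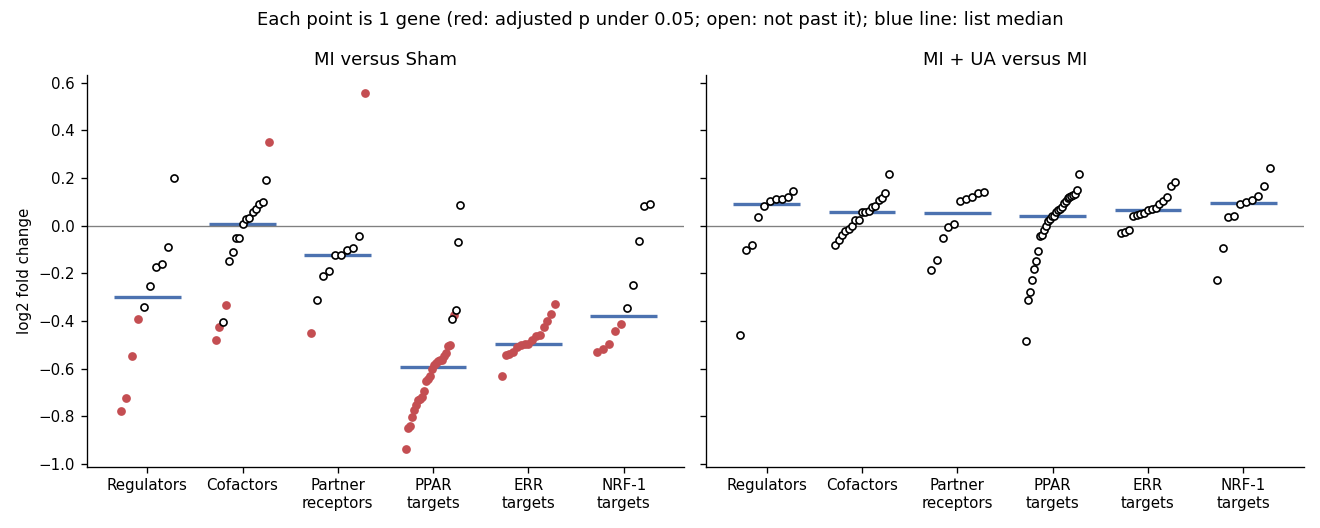
Log2 fold changes of single genes (points, red where the adjusted p was under 0.05) in the 10 regulators and 5 lists of related genes, with the list median as a blue line. In MI versus Sham 24 of 28 PPAR targets and 15 of 15 ERR targets are red and below 0, while in MI + UA versus MI no point is red and the medians lie between 0.04 and 0.09.

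Cofactors of the pathway were called in both directions. Of 17 genes matching 16 coactivator, corepressor and modifier symbols, 3 fell, 1 rose and the median log2 fold change was 0.01, beside 5.53% of all genes called lower and 5.82% higher, so the single rise is near the share over all genes. Perm1, a muscle regulator induced by PGC-1 and ERR, fell from 262 ± 11.6 to 188 ± 22.7 CPM (-0.48, SE 0.10, adjusted p = 0.00301). Lpin1, which encodes lipin 1, a phosphatidate phosphatase that also coactivates PPAR alpha, fell by 0.43 (SE 0.09, adjusted p = 0.00408). Prkaa2, the AMPK catalytic subunit typical of striated muscle, fell by 0.33 (SE 0.09, adjusted p = 0.0159). None of these 3 overlapped between Sham and MI, as did 7.56% of all genes in the lower direction. Of 10 partner receptors and respiratory factors, 1 fell and 1 rose. Thrb, a thyroid hormone receptor, fell by 0.45 (SE 0.11, adjusted p = 0.0102). Rara, a retinoic acid receptor that also pairs with retinoid X receptors, rose by 0.56 (SE 0.14, adjusted p = 0.0133). In a list of 10, 1 call in each direction is near the 5.53% and 5.82% of all genes. It is not read as a result about these partners. Scaled to the cardiomyocyte markers, 13 of the 17 cofactor genes were called higher and none lower in MI, so Perm1, Lpin1 and Prkaa2 lost their calls. On that scale Gabpa (0.41, adjusted p = 0.0110) and Rara (1.01, adjusted p = 0.000144) were called higher and no partner was called lower, beside 39% of all genes called higher and 0.275% lower.

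In MI + UA versus MI, none of the genes in these 5 lists was called. By edgeR's test, the genes under 0.05 without adjustment were Sirt1, a deacetylase that acts on PGC-1 alpha (log2 fold change 0.22, unadjusted p = 0.0239), Etfdh, which passes electrons from beta-oxidation to ubiquinone (0.22, unadjusted p = 0.0232), Ckmt2 (0.18, unadjusted p = 0.0438) and Tomm20, a subunit of the mitochondrial import channel (-0.23, unadjusted p = 0.0428), each with adjusted p = 0.9997. They were 1 of 17 cofactors, 0 of 10 partners, 1 of 28 PPAR targets, 1 of 15 ERR targets and 1 of 10 NRF-1 targets, beside 3.79% of all genes, so these shares are read as no result.

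Each regulator was also matched with the genes whose log2 CPM followed it most closely over the 12 rats, among 7341 named genes with an average log2 CPM of at least 3. The Pearson r below describes likeness only, since all genes share the libraries and the group differences. Its value after subtracting the group means is given second. Perm1 lay closest to Ppargc1a (0.99, 0.96), ahead of Tnik (0.97, 0.87). Ppargc1b was followed by Pank4 (0.98, 0.98), Dsp (0.97, 0.92) and Ttn (0.97, 0.91), of which Dsp encodes desmoplakin and Ttn the sarcomere protein titin. Ttn is also among the cardiomyocyte markers used for scaling. Lpin1 (0.98, 0.89), Sdhaf2 (0.97, 0.84) and Asb15 (0.97, 0.82) tracked Rxrg, and Rptor (0.96, 0.89), Lynx1 (0.94, 0.83) and Slc25a23 (0.93, 0.84) tracked Esrrb. Perm1 and Lpin1, first for Ppargc1a and Rxrg, are both in the cofactor list. That list was chosen with earlier results of these data known, so this is a description only.

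Among the regulators not called, Ppara went with Carns1 (0.91, 0.90), Ppm1k (0.90, 0.86) and Hcn2 (0.90, 0.86), and Ppard with Tmem50b (0.91, 0.90), Cwc15 (0.90, 0.88) and Lrp11 (0.90, 0.91). Esrrg went with Mrpl38 (0.91, 0.87) and Prkaa2 (0.91, 0.90), the AMPK subunit named above. Those of Nrf1 were Cspp1 (0.91, 0.90), Rabgap1l (0.89, 0.87) and AABR07035338.1 (0.86, 0.87), and those of Rxra were Stk11 (0.88, 0.80), Map2k2 (0.88, 0.80) and Cnnm4 (0.87, 0.85). For Esrra, with at most 11 reads per rat, Parp1 (0.89, 0.86) and Snrnp48 (0.81, 0.83) came out near, and a match at that depth carries little information.

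The 250 bases before annotated starts were searched for 5 motifs on both strands, using RefSeq's GRCr8 promoters, of which 12 belonged to 9 of the regulators. The cAMP response element TGACGTCA was found in 1.59% of 33469 promoters and, among the regulators, in that of Ppargc1a shown above. The NRF-1 element GCGCATGCG was found in 1.35% of promoters and in that of Ppara, 100 to 92 bases before the start, where overlapping matches lie on both strands. The ERR element TCAAGGTCA (0.388% of promoters), the PPAR/RXR element AGGTCANAGGTCA (0.0508%) and the MEF2 element (2.96%) were in none of the 12 windows. The windows of Rxrg, chr13:82276237-82276486, and Esrrb, chr6:111738412-111738661, both on the plus strand of GRCr8, are printed as well because these genes fell with Ppargc1a, and they held none of the 5 motifs. G and C made up 60.8% of the Rxrg window, 62% of that of Esrrb and 50.4% of that of Ppargc1a. These letters say nothing of whether a factor was bound in these hearts.
Rxrg: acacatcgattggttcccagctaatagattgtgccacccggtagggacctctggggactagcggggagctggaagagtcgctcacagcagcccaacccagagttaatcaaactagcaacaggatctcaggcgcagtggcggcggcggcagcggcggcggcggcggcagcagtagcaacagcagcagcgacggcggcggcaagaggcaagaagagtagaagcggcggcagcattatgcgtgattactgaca
Esrrb: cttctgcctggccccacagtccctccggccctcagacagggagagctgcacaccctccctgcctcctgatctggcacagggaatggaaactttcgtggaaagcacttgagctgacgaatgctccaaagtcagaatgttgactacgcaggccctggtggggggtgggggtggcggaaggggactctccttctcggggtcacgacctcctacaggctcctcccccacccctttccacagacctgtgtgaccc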

How the data were processed

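The deposited table holds raw read counts per gene, which the authors made with STAR 2.6.1c and HTSeq on build mRatBN7.2 and checked with MultiQC 1.8, per the labels. The strand setting of the counting is not given in the sources used here. From these counts, edgeR 4.0.16 (R 4.3.3, TMM scaling) was fitted to the 3 groups of 4 rats together over the 18182 genes whose counts summed to 10 or more, with the quasi-likelihood test and adjustment over those genes. DESeq2 1.42.0, other scalings and filters, and leaving out each rat were alternatives. The 5 summary lines of the counter were left out. The code was tested on simulated data. The regulators and gene lists were chosen with earlier results of these data known. Named genes were all 10 regulators, up to 3 called genes per list and direction in MI versus Sham, up to 3 per list with the smallest unadjusted p under 0.05 in MI + UA versus MI, and the 3 genes most like each regulator. Some genes that this rule names are not reported here. The PPAR targets that were not called, genes called under marker scaling, the other NRF-1 targets called, and the within-family ratios were named or chosen after the values were seen. Cd36, Atp5f1c and Pln did not match a gene name in the table and were not used here, and Ep300 stood for 2 genes. No 2 libraries of a group agreed within sampling noise (chi-square per degree of freedom 1.95 to 17.0). Reads are not counted by molecular identifiers, so depth intervals cover counting error only.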

Additional observations from a re-analysis of the deposited data

Results flagged for a closer look

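Of 42 groups of 4 rats examined (log2 CPM of each regulator and the 4 count ratios), 2 held a rat far from the other three by Dixon's ratio at its 95% critical value, and chance gives about 1 in 20. In MI, Esrrg was lowest in rat 89 (43.4 CPM), with a gap of 0.837 of the group's range. In MI, the Ppargc1a/Ppargc1b ratio was lowest in rat 57 (0.678), with a gap of 0.856 of the range.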

How the results depend on the processing

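The counts of regulators called were within 1.5 times of those reported under all alternatives of tool, scaling, filter, samples fitted and placement of rat 66 except the marker scaling below (4 in MI versus Sham, 0 in MI + UA versus MI, 2 or 3 in MI + UA versus Sham). With each rat left out in turn, 2 to 4 regulators were called in MI versus Sham (2 without MI rat 61), 1 to 3 in MI + UA versus Sham (1 without MI + UA rat 58 or 64) and 2 to 4 NRF-1 targets were lower in MI + UA versus Sham (2 without Sham rat 32 or 38 or MI + UA rat 29 or 64). Uncalled estimates changed sign over these fits, from -0.33 to 0.26 for Esrra in MI versus Sham and, in MI + UA versus MI, from -0.016 to 0.14 for Ppargc1b, -0.017 to 0.22 for Ppara, -0.019 to 0.13 for Ppard, -0.13 to 0.013 for Nrf1 and -0.0051 to 0.19 for Rxrg. The other estimates in MI + UA versus MI kept their sign over these fits but moved. They ran from 0.022 to 0.19 for Ppargc1a, -0.68 to -0.31 for Esrra and 0.041 to 0.37 for Esrrb. Those of Esrrg ran from 0.020 to 0.15 and those of Rxra from -0.18 to -0.014. With rat 66 counted in MI, estimates in MI + UA versus MI were -0.058 for Ppargc1a, -0.091 for Ppargc1b, -0.0086 for Ppard, -0.024 for Esrrb, -0.042 for Esrrg and -0.10 for Rxrg.

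Scaling to the cardiomyocyte markers, chosen after the data were seen, moved all genes by construction (median shift 0.45 in MI versus Sham, -0.06 in MI + UA versus MI and 0.39 in MI + UA versus Sham). In MI versus Sham, 2 regulators were called, both higher and neither among the 4 reported, and estimates turned positive for Ppargc1b (0.054), Ppara (0.11), Ppard (0.28), Esrra (0.34), Esrrg (0.19) and Rxra (0.27). In MI + UA versus Sham they turned positive for Ppargc1b (0.076), Ppara (0.16), Ppard (0.27), Esrrg (0.24) and Rxra (0.11), and Ppard stood at -0.012 in MI + UA versus MI. Targets called lower numbered 6 for PPAR, 0 for ERR and 0 for NRF-1 in MI versus Sham, and again 6, 0 and 0 in MI + UA versus Sham. Depth limits Esrra most, then Esrrb. No paired analysis was possible because each rat belongs to 1 group and no number links rats across groups.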
